A study of Mus musculus with 4 samples.

Results

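Myosin light chains are the small calcium-binding-protein relatives that wrap around the neck of the myosin heavy chain. The genes described here are the 9 light chain genes Myl1, Myl2, Myl3, Myl4, Myl6, Myl7, Myl9, Myl12a and Myl12b together with Mylk3, which encodes the light chain kinase of heart muscle. They were chosen by name, 10 of 20701 gene symbols, with earlier results of these data known. For each gene the transcript with most reads was used. RNA had been sequenced from cardiac progenitor cells (CPCs) obtained by differentiating mouse E14 embryonic stem cells (ESCs) that carry a Tg(Nkx2-5-EmGFP) reporter, and sorted as Nkx2-5-GFP+ cells at day 5. The control group had 2 libraries from such CPCs, and the Baf60c KD group had 2 libraries from CPCs of the same reporter line with a short hairpin RNA knockdown of Baf60c. Baf60c, the protein product of Smarcd3, belongs to the SWI/SNF (BAF) complexes that remodel chromatin, and in the embryo it is enriched in the heart. Per the methods the knockdown was made in ESC pools rather than single clones, control cells carried the pLKO vector, and 2 hairpins are described without saying which was used for these libraries. Nothing states that libraries of a group came from separate differentiations, so p-values measure only the spread between libraries, which may be technical.

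Each myosin head binds 1 essential and 1 regulatory light chain. The regulatory chain can be phosphorylated, which changes how strongly the head engages actin, while the essential chain stiffens the lever arm. Striated muscle uses its own set, with Myl7 (regulatory) and Myl4 (essential) typical of the atrium and of the early embryonic heart, Myl2 and Myl3 typical of the ventricle, and Myl1 of fast skeletal muscle. Myl9 is the regulatory chain of smooth muscle, Myl12a and Myl12b are regulatory chains of non-muscle myosin, and Myl6 is the essential chain of smooth and non-muscle myosin.

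Promoter sequence is shown for the 3 members whose window holds a CArG box, the binding sequence of serum response factor that many muscle genes carry, before their main start. All 10 members were found among the RefSeq promoters of build GRCm38.p6, with 13 windows in all. In each of them the 250 bases before the start were searched on both strands for a CArG box, a MEF2 box, GATA sequences, TNAAGTG (NKX2-5), AGGTGT (T-box factors) and CANNTG (E-box). The GATA sequences were AGATAA and AGATAG and also TGATAA and TGATAG. A CArG box can overlap a MEF2 box, and AGGTGT can overlap an E-box. The stretches below run 5′ to 3′ on the strand of the gene and capitals mark CArG boxes and GATA sequences. Myl7 is given from 200 to 31 bases before its start (chr11:5898813-5898982, minus strand), and Myl3 (chr9:110763478-110763627, plus strand) and Myl9 (chr2:156775264-156775413, plus strand) from 200 to 51 bases.
Myl7: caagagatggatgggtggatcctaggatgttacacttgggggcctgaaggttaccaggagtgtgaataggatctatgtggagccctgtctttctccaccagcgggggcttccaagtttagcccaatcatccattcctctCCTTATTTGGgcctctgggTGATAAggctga
Myl3: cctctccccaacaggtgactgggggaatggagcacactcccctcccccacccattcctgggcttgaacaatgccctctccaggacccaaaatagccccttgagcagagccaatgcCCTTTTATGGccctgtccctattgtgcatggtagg
Myl9: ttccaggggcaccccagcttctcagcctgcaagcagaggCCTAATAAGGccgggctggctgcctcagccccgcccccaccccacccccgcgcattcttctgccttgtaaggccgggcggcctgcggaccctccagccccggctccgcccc

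CArG boxes stood in 4 of the 13 windows, against 1.47% of 32851 windows of the same length over all genes. They lay at −61 to −52 in Myl7, −85 to −76 in Myl3, −161 to −152 in Myl9, and −50 to −41 before a second, downstream start of Myl6. No CArG box was found in the windows of Myl1, Myl4, Myl2, Myl12a, Myl12b and Mylk3. For Myl1 only 1 window was listed, near the upstream end of the gene, so a start further downstream was not searched. GATA sequences were found in 6 of the 13 windows (26.5% of all windows) and E-boxes in 8 (66.2%). In Myl7 the GATA sequence follows the CArG box closely, at −42 to −37. The letters of the MEF2 box (2.92% of all windows), TNAAGTG (10.1%) and AGGTGT (11.8%) were in none of the 13. These are matches of letters only, and binding was not measured here. The windows listed for Myl2 lie 7762 and 8227 bases from the nearest Myl2 transcript start of the mm9 annotation, so the stretch next to that start was not searched.

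Library totals, summed over transcript rows that can share reads, lay between 22064092 and 30398452 reads. The transcripts used, 1 per gene, held 12623003 to 17649417 reads. Levels are given as RPKM, the reads of a transcript divided by its length in kilobases and by the size of the library. Smarcd3, the knockdown target, was at 173.9 and 166.8 RPKM in control and at 46.4 and 46.3 RPKM in Baf60c KD, a log2 fold change of −1.85 (limma, Benjamini-Hochberg adjusted p = 2.68e-10). Of 11370 genes tested, 4104 were higher and 2072 lower at an adjusted p under 0.05, which is 54.3% of the genes, 36.1% higher and 18.2% lower. With median-ratio scaling of the libraries the split was 2929 higher and 2893 lower. The median absolute log2 fold change over all genes was 0.16, and with close replicates small differences passed. A decrease of more than 1 on the log2 scale that also passed was found for 1.26% of genes, and an increase of more than 1 for 1.19%.

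All 10 members passed the low-value filter and the test, 7 lower and 3 higher in Baf60c KD. Over all genes tested 18.2% were lower and 36.1% higher. The median log2 fold change of the members was −0.95 against 0.07 over all genes tested. Every change is on the log2(RPKM + 1) scale. The striated muscle chains Myl1, Myl2, Myl3, Myl4 and Myl7 were all lower, with log2 fold changes of −2.90 to −1.16. All 5 were among the genes that fell by more than 1. Myl1 passed the low-value filter only through its control level, so its call is no support for the set. The smooth and non-muscle chains Myl6, Myl9, Myl12a and Myl12b were split, 2 lower and 2 higher, and Mylk3 was higher. Control and Baf60c KD libraries did not overlap for any of the 10, as for 77.4% of all genes tested. Since these are bulk libraries, fewer cells that express a chain and less of its RNA per cell cannot be told apart.

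**Figure D1:**
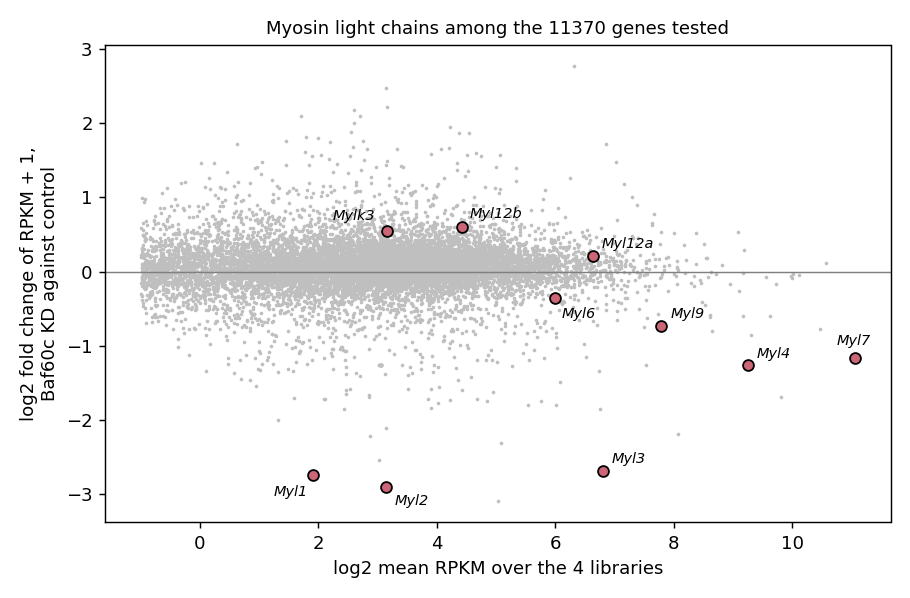
Log2 fold change of RPKM + 1 (Baf60c KD against control) on the vertical axis and log2 mean RPKM over the 4 libraries on the horizontal axis, 1 point per gene for the 11370 genes tested, light chains and Mylk3 in red. Myl2, Myl1 and Myl3 lie at the lower edge of all genes (−2.90, −2.74 and −2.68), Myl7 at the far right, and Myl12a, Myl12b and Mylk3 above 0.

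Levels, which RPKM makes comparable between genes because it is per length, spanned several orders of magnitude. In control the order was Myl7, Myl4, Myl9, Myl3, Myl12a, Myl6, Myl12b, Myl2, Myl1 and Mylk3. Neighbours in this order did not overlap between libraries, except that Myl12b (mean 16.99 RPKM) overlapped Myl2 (16.3) and Myl1 (7.26) overlapped Mylk3 (7.06). In Baf60c KD the order became Myl7, Myl4, Myl9, Myl12a, Myl6, Myl3, Myl12b, Mylk3, Myl2 and Myl1, with no overlap between neighbours. Myl3 thus passed below Myl12a and Myl6, and Myl2 below Mylk3.

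**Figure D2:**
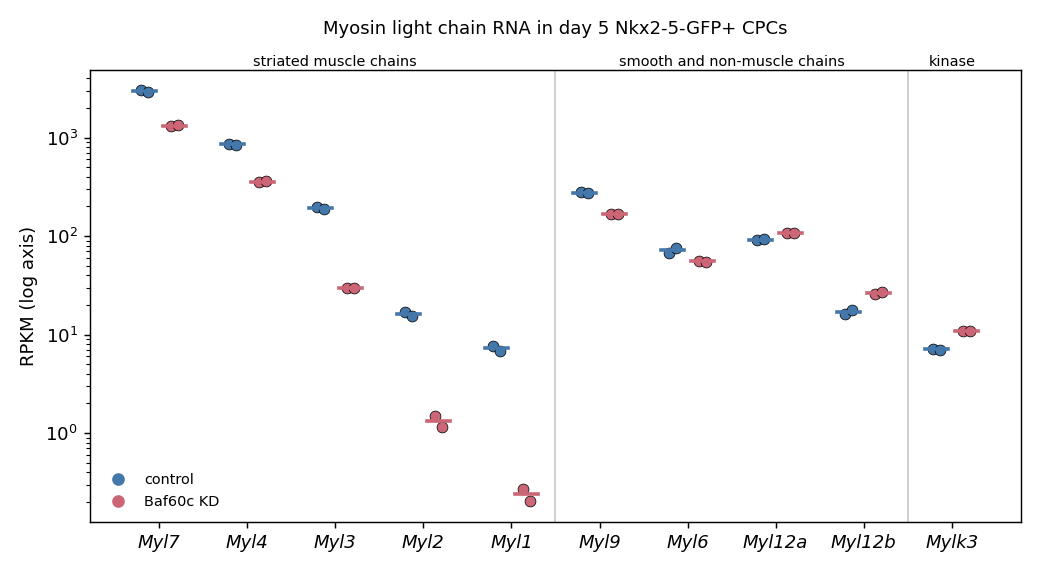
RPKM of each gene on a log axis in the 2 control (blue) and the 2 Baf60c KD (red) libraries, points for libraries and bars for group means. The red points are lower for the 5 striated chains and for Myl9 and Myl6 and higher for Myl12a, Myl12b and Mylk3, with the widest gaps for Myl1, Myl2 and Myl3.

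The atrial chains were the most abundant ones, and both fell, Myl7 to a 2.24-fold and Myl4 to a 2.40-fold lower mean level. Myl7 (chromosome 11, minus strand, 5796640 to 5798785 in mm9) was at 3012 and 2894 RPKM in control, the highest mean level of any gene tested. It was at 1297 and 1336 RPKM in Baf60c KD, where its mean ranked 2 among all genes. Both Baf60c KD libraries were far below both control libraries, and the spread within each group was small beside the gap. The means were 2953 ± 83.6 and 1316 ± 27.6 RPKM (SD, n = 2 each). On the log2 scale Myl7 changed by −1.16 with a standard error of 0.022 (limma, adjusted p = 1.27e-09).

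Myl4, the essential chain that pairs with Myl7 in the atrium, lies on the plus strand of the same chromosome from 104411977 to 104457067. It was at 867 and 850.4 RPKM in control and at 357 and 359 RPKM in Baf60c KD. Here, too, the Baf60c KD libraries stood clear of the control libraries. The log2 fold change was −1.26 (SE 0.019; limma, adjusted p = 1.83e-10). Its annotated exons overlap by a few bases with Gm11665, which is transcribed the other way.

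The ventricular chains had lower levels to begin with and fell further. Myl3, the ventricular essential chain (chromosome 9, plus strand, 110666150 to 110672308), was at 197 and 190.3 RPKM in control and at 29.4 RPKM in both Baf60c KD libraries. The difference was 6.60-fold, and no other gene of the family with a level above 100 RPKM in control changed as much. Its log2 fold change of −2.68 (SE 0.030; limma, adjusted p = 2.79e-11) ranked 4 from the lowest among the 11370 genes.

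Myl2, the ventricular regulatory chain (chromosome 5, plus strand, 122550960 to 122563481), was at 17.1 and 15.5 RPKM in control and at 1.48 and 1.16 RPKM in Baf60c KD. These values rest on 248 and 214 reads in control and on 21 and 22 reads in Baf60c KD. The level was 12.4-fold lower by mean RPKM, and the pooled reads gave 12.6-fold with a 95% Clopper-Pearson counting interval of 9.21 to 17.6. Its log2 fold change was −2.90 (SE 0.077; limma, adjusted p = 5.57e-09), rank 2 from the lowest. This value understates the change of a gene with so few reads, being −3.54 with a pseudocount of 0.1 in place of 1. The order of Myl2 and Myl1, which was at −4.45 with 0.1, depends on the pseudocount. Some Myl2 exon bases are shared with Ccdc63 on the opposite strand, and since the counting ignored strand the reads of both cannot be separated there.

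Myl1, the essential chain of fast skeletal muscle, was low in control and close to absent after knockdown. The gene is found on chromosome 1 (minus strand, 66970869 to 66991978) and was at 7.67 and 6.84 RPKM in control and 0.272 and 0.204 RPKM in Baf60c KD. These levels correspond to 144 and 122 reads against 5 and 5 reads. The pooled reads gave a 31.2-fold lower level with a counting interval of 16.7 to 65.8, so its size is poorly known, and the log2 fold change of −2.74 (SE 0.077; limma, adjusted p = 6.78e-09, rank 3 from the lowest) understates it, being −4.45 with a pseudocount of 0.1. Myl1 passed the filter of 0.5 RPKM on the mean only through its control level. The gene makes a longer and a shorter chain from separate starts. The row of the shorter transcript (NM_001113387, 808 bases), used above, and that of the longer one (NM_021285, 985 bases) behaved alike, with 132 and 112 reads for the longer one in control and 5 and 5 in Baf60c KD, although most reads may be shared between them.

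Light chains outside the 10 were few. Mylpf, the regulatory chain of fast skeletal muscle, had 7.10 and 7.17 RPKM in control and 1.77 and 1.19 RPKM in Baf60c KD and thus fell as well (log2 fold change −1.72, SE 0.10; limma, adjusted p = 1.1e-06). Myl6b, which the naming rule did not select and which was picked once its values were known, had means of 2.48 RPKM (control) and 2.17 RPKM (Baf60c KD) and did not pass (−0.14, adjusted p = 0.142, limma), and Myl10 was without reads. Of the skeletal muscle markers, 4 had no reads, namely the myogenic factors Myod1, Myf5 and Myf6 and the channel subunit Cacng1. Myog, Pax7, Ckm, Tnnc2 and Atp2a1 had reads but were below the filter. Control means were 0.648 RPKM for Tnnc2, 0.235 for Ckm and 0.231 for Atp2a1, against 0.297, 0.0351 and 0.188 after knockdown. Myog, a further myogenic factor, and Pax7 reached at most 0.0597 and 0.0103 RPKM, each in Baf60c KD replicate 1. Of 4 skeletal muscle markers tested, Acta1 (−1.80) and Tnni2 (−1.66) fell, Actn3 rose by 0.23 and 1 did not pass. The call for Actn3 was lost with median-ratio scaling (limma, adjusted p = 0.0872). The summed level of the 13 markers in the table was 88.01 to 92.7 RPKM in control and 27.4 to 29.1 RPKM in Baf60c KD, most of it from Acta1, a gene that the embryonic heart also uses.

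Chains of smooth and non-muscle myosin changed less and not in one direction. Myl9, the smooth muscle regulatory chain (chromosome 2, plus strand, 156601156 to 156607394), fell from 279 and 275 RPKM to 166 and 167 RPKM. This was a 1.66-fold lower level with very close replicates (log2 fold change −0.73, SE 0.023; limma, adjusted p = 1.22e-08). The smooth muscle markers, listed because Myl9 is one of that cell type's genes, were lower at 6 of 10 and higher at 2. Myh11 (−1.15), Cnn1 (−0.93), Myocd (−0.69) and Acta2 (−0.60) were the largest changes. The higher ones were Cald1 (0.56) and Tagln (0.50). The summed level of the 10 markers was 1315 to 1316 RPKM in control and 963 to 970.0 RPKM in Baf60c KD. Its part in the change of Myl9 was not tested.

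Myl6, the essential chain that smooth and non-muscle myosins share, sits next to Myl6b on chromosome 10 (minus strand, 127927916 to 127930931). It was at 67.9 and 75.2 RPKM in control and at 56.5 and 54.8 RPKM in Baf60c KD. The groups did not overlap, but the control libraries differed by more than for most members, and the decrease was small (−0.36, SE 0.046; limma, adjusted p = 0.000189). Of its 5 transcript rows, which overlap in reads, each was lower in Baf60c KD by mean, at 55.2 to 75.2 RPKM in control and 44.5 to 56.5 RPKM in Baf60c KD over all rows.

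Myl12a and Myl12b are neighbouring genes on the minus strand of chromosome 17, at 71342996 to 71352218 and 71323260 to 71340127. Their coding sequences were identical at 96.5% of 519 aligned bases and shared a run of 105 bases, so reads from one may have been given to the other or dropped. Myl12a rose slightly, from 92.0 and 92.5 RPKM to 106 and 108 RPKM (0.21, SE 0.027; limma, adjusted p = 0.000124). With median-ratio scaling its change was smaller, at 0.14 (limma, adjusted p = 0.00211). Myl12b had lower levels and a larger increase, from 16.1 and 17.8 to 25.5 and 26.9 RPKM, or 1.54-fold (0.60, SE 0.051; limma, adjusted p = 1.06e-05). No Baf60c KD library of either gene reached down to its control libraries. Myl9, the member closest to them in sequence with 85.5% and 86.3% identity, moved the other way, whereas Myl3 and Myl4, which share 78.1% of their aligned coding bases, both fell. Myl2 and Myl7 share 64.0%.

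Mylk3, the kinase that phosphorylates the ventricular regulatory chain in heart muscle, rose while the chains of the sarcomere fell. The gene spans 87848202 to 87910244 of chromosome 8 (minus strand). Its level was 7.19 and 6.93 RPKM in control and 10.9 and 10.8 RPKM in Baf60c KD, 1.53-fold higher (0.55, SE 0.049; limma, adjusted p = 1.18e-05). A shorter transcript row (NM_001297612) gave 7.74 and 7.54 RPKM against 11.5 and 11.6 RPKM. Thus Mylk3 was less abundant than Myl2 in control and more abundant than it in Baf60c KD, in every library.

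Other kinases that can act on regulatory chains or their kinases, from a list of 14, were higher at 5 and lower at 3 of 12 tested. Over all genes tested, for this list as for the other lists, the shares were 36.1% higher and 18.2% lower. Dapk2 (0.73), Stk17b (0.43), Pak1 (0.40) and Dapk1 (0.39) were the largest changes among them, and the lower ones were Mylk, Rock1 (−0.18) and Pak2 (−0.16). Mylk, the kinase of smooth muscle, was also picked once its values were known. Its mean level was 0.717 RPKM (control) and 0.398 RPKM (Baf60c KD) (−0.30, limma, adjusted p = 0.0128), and leaving out Baf60c KD replicate 1 ended the call (limma, adjusted p = 0.0699). Mylk passed the filter of 0.5 RPKM only through its control level, and its size depends on the scale, with −0.71 at a pseudocount of 0.1 and −0.85 with voom. Mylk2, the skeletal muscle form, was below 0.5 RPKM and Mylk4 was without reads. On the side of the phosphatase, 4 of 7 genes tested were lower and 2 higher. Ppp1r12b, the targeting subunit of striated muscle, went from 2.21 and 2.49 RPKM to 1.09 and 1.16 RPKM (−0.66; limma, adjusted p = 7.62e-05), and Ppp1r12a, the broadly expressed targeting subunit, fell by 0.17. Of the inhibitor subunits, Ppp1r14a rose by 1.03 and Ppp1r14c fell by 1.60 (limma, adjusted p = 6.17e-07 and 3.6e-08). Ppp1r14b, picked once its values were known, did not pass (0.02, limma, adjusted p = 0.796), and Ppp1r14d was below the filter.

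**Figure D3:**
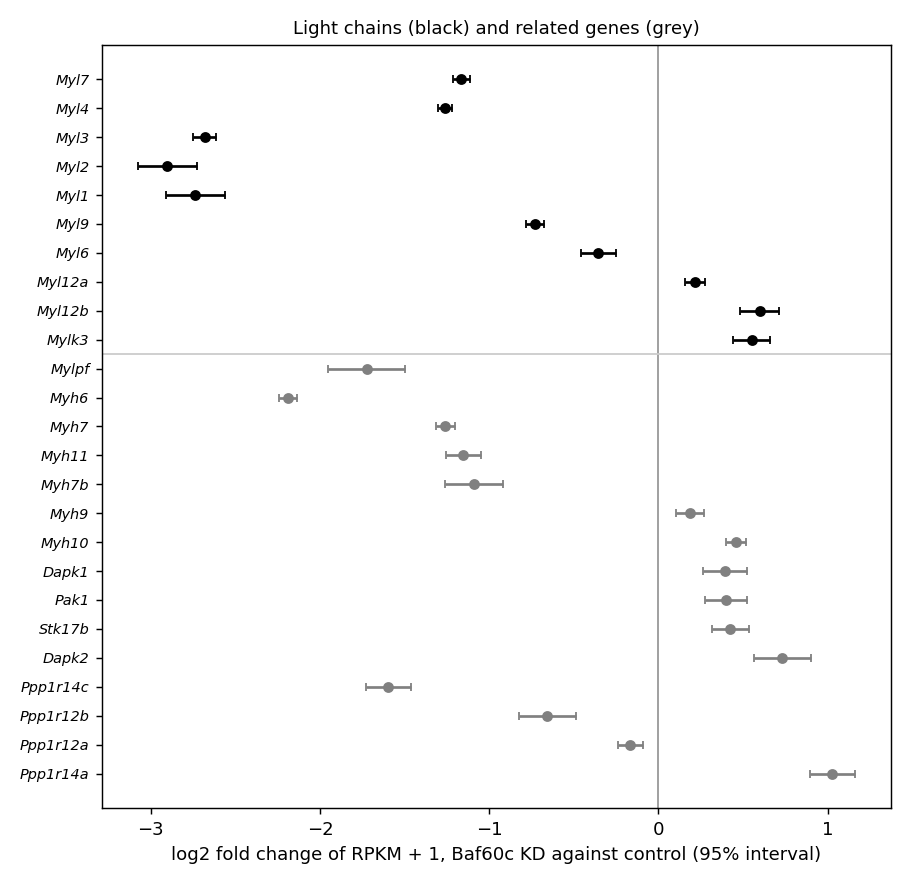
Log2 fold change of RPKM + 1 (Baf60c KD against control) with 95% intervals from limma for the 10 members (black, above the line) and for the named genes of the related lists (grey). From top to bottom the grey genes are the remaining light chain, muscle and non-muscle heavy chains, kinases and phosphatase subunits.

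The make-up of the light chain pool within each library was compared next, since it does not depend on how libraries are scaled. Among the regulatory chains, Myl2 and Myl7 together made up 88.7% and 88.3% of the summed RPKM in control and 81.3% and 81.6% in Baf60c KD. Among the essential chains, the striated forms Myl1, Myl3 and Myl4 made up 94.0% and 93.3% in control and 87.2% and 87.6% in Baf60c KD. In both classes the groups did not overlap. The striated forms still made up most of each pool in Baf60c KD, where Myl7 held 81.2% and 81.5% of the regulatory pool and Myl4 held 80.5% and 80.97% of the essential pool. Myl6 went from 6.32% to 12.6% of the essential pool by group mean, and Myl12a from 2.75% to 6.62% of the regulatory pool.

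**Figure D4:**
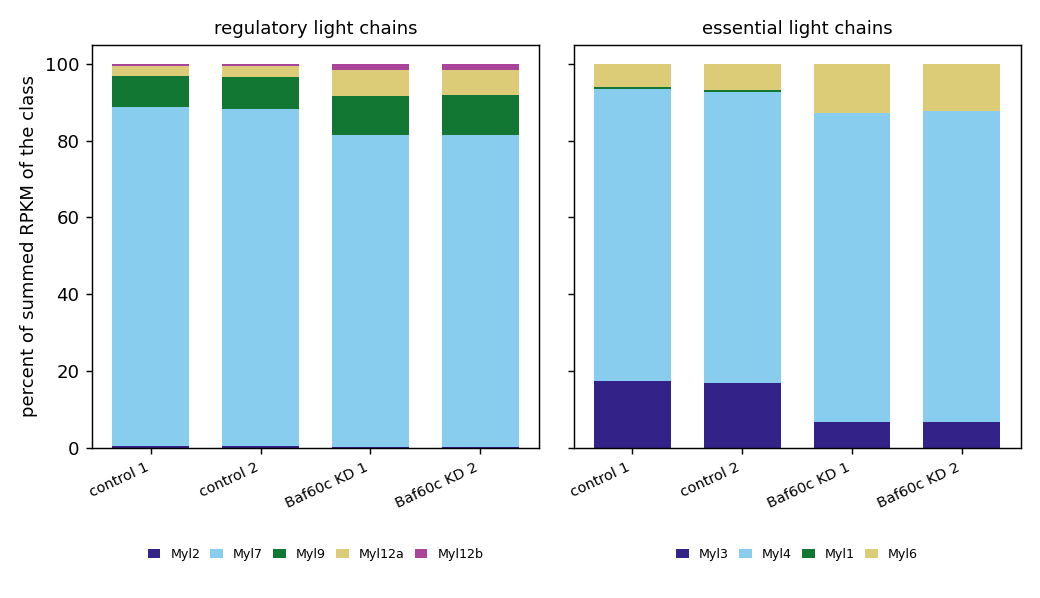
Percent of the summed RPKM of the regulatory (left) and essential (right) light chains that each gene holds, 1 bar per library. Myl7 and Myl4 fill most of every bar, Myl3 shrinks from 17.3% and 16.95% to 6.63% in both Baf60c KD libraries, and the shares of Myl9, Myl12a, Myl12b and Myl6 are larger in Baf60c KD.

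Ventricular chains fell more than atrial ones within the same libraries. The log2 ratio of Myl2 to Myl7 was −7.46 and −7.54 in control and −9.77 and −10.17 in Baf60c KD, so the ratio itself was 5.55-fold lower. The log2 ratio of Myl3 to Myl4 was −2.14 and −2.16 in control and −3.60 and −3.61 in Baf60c KD, 2.75-fold lower. For both ratios the gap between groups was several times the spread within a group. With 2 libraries per group an exact permutation test (two-sided) cannot give less than p = 0.333, which each of these 2 ratios and of the 2 shares above gave. Myl4 was 4.39 and 4.47 times as abundant as Myl3 in control and 12.1 and 12.2 times in Baf60c KD. The sum of the cardiac regulatory chains (Myl2 and Myl7) over that of the cardiac essential chains (Myl3 and Myl4) was 2.85 and 2.80 in control and 3.36 and 3.44 in Baf60c KD.

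Heavy chains, the partners of these light chains, are given for orientation. Of 11 muscle heavy chains 4 were tested and all were lower, namely Myh6 (−2.19), Myh7 (−1.26), Myh11 (−1.15) and Myh7b (−1.09). Myh6 and Myh7 are counted again among the cardiac genes, and Myh11 was also counted among the smooth muscle markers. The non-muscle heavy chains Myh10 (0.46) and Myh9 (0.19, or 0.11 with median-ratio scaling), both tested, were higher, like Myl12a and Myl12b. Among all genes tested, those with the profile closest to each heart light chain were found by Euclidean distance over the 4 centred log2(RPKM + 1) values. For Myl2 these were Myl1 (distance 0.19), Myl3 (0.27) and Cox6a2 (0.27), and for Myl3 they were Myl1 (0.10), Tnni3 (0.16) and Myl2 (0.27). For Myl4 they were Myh7 (0.034), Ptrf (0.046) and Grip2 (0.053). For Myl7 they were Cox7a1 (0.018), F11r (0.038) and Adssl1 (0.041). With 4 libraries this distance mostly reflects the size of the difference between groups on the log2(RPKM + 1) scale, which shrinks changes of low genes. Myl1, close to Myl3 by this distance, was 31.2-fold lower by pooled reads, against 6.60-fold by mean RPKM for Myl3.

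The cells carried the markers of their label. All 20 cardiac genes listed, contractile genes and cardiac transcription factors without the light chains, were tested. In Baf60c KD 18 of them were lower and 2 higher, namely the transcription factors Hand2 (1.27) and Gata4 (0.39). Among the 18, Nppa passed the filter only through its control level. The 20 genes had a median of −0.82, with Tnni3 (−2.54), Myh6 (−2.19), Myom1 (−1.75) and Actc1 (−1.68) as the largest changes. Their summed level was 6125 to 6159 RPKM in control and 3126 to 3169 RPKM in Baf60c KD. Epicardial, blood and endothelial markers had summed levels far below that of the cardiac genes but moved too. Of 5 epicardial markers tested, Upk3b (by 1.81), Bnc1 (by 1.67), Wt1 (by 1.34) and Tcf21 (by 0.44) were higher. Wt1 and Tcf21, at 0.337 and 0.450 RPKM in control by mean, passed the filter only through Baf60c KD, so their calls are no support for the list. All 6 epicardial markers had a summed level of 5.78 to 6.57 RPKM in control and 20.8 to 22.1 RPKM in Baf60c KD. Blood markers were higher at 3 of 4 (Hba-x by 1.75, Hbb-bh1 by 1.66, Tal1 by 0.56), with a summed level of 6.04 to 6.43 RPKM in control and 20.99 to 21.97 RPKM in Baf60c KD, and Ptprc had no reads. Endothelial markers were higher at 5 and lower at 4 of 9 tested. Tek (2.47), Etv2 (0.96), Kdr (0.72) and Pecam1 (0.51) had the largest changes. The lower ones were Cdh5 (−0.51), Tie1 (−0.40), Esam (−0.39) and Plvap (−0.28). Summed levels of the list were 39.6 to 41.4 RPKM in control and 62.5 to 65.5 RPKM in Baf60c KD. The part of these shifts in the light chain differences was not tested.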

How the data were processed

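RNA-seq of 4 libraries was used, with groups and replicate numbers from the sample titles. According to the study's methods, the authors mapped reads with STAR to mm9, counted them over exons of RefSeq transcripts with HOMER on both strands, and deposited RPKM made with edgeR. The deposited table also holds the authors' fold changes and p-values, which were not used. It has 35707 rows, a pair of stacked tables normalised separately, and the first 31507 rows were used. RPKM times length gave whole reads for 100% of values (tolerance 0.001 reads). Summed over transcripts, the control libraries held 23233027 and 22064092 reads and the Baf60c KD libraries 22714412 and 30398452, and counting intervals cover counting error only. The lists of related genes and the members were chosen with earlier results of these data known.

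limma (version 3.58.1, R 4.3.3) was fitted to log2(RPKM + 1) with trend and robust priors, no covariate, a minimum mean of 0.5 RPKM, and Benjamini-Hochberg adjustment over all genes. The fit was tested on simulated data. All members were named, and at most 4 genes past the threshold of each list, largest change first, with the exceptions stated. Hand2, Gata4, Rock1, Pak2, Cald1, Tagln, Egfl7, the lower endothelial markers and the skeletal muscle markers below the filter were named beyond this rule. Ratios within libraries were compared by exact permutation (scipy 1.17.1). Gene positions are from GENCODE vM1 on mm9, where Myl12a appears under an older symbol, and coding identity is from the longest coding sequence of each gene (Biopython 1.88). Alternatives were other filters, pseudocount, scaling, transcripts, left-out libraries and a replicate block. Voom was added after the data were seen. 1 list of related genes is not reported here.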

Additional observations from a re-analysis of the deposited data

How the results depend on the processing

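Each of the 10 members kept its direction and its call in all 12 alternatives run, 120 values in all, with a largest adjusted p of 0.00283 (limma, for Myl6 without the filter on low values). In 4 of the 12, which leave out a library, the lone library of a group is assumed to vary like the other group, so these calls say little about stability. The size depended on the scale for low genes, and Myl1 ranged from −4.84 to −2.66 and Myl2 from −3.65 to −2.80, against −1.24 to −1.14 for Myl7 and −1.34 to −1.25 for Myl4. Genes changed numbered 10317 with all transcripts tested, since more rows were tested, and the members lower and higher stayed at 7 and 3. Nothing states that control and Baf60c KD libraries with the same number were made together. The correlation of their deviations was 0.024, which cannot decide this with 2 libraries in a group. A replicate block gave 6145 genes changed and changed no member's call. Median-ratio scaling lowered the median log2 fold change of all genes by 0.066, with 50.3% of called genes higher against 66.5%. Under it, and also without the filter, without control replicate 2 or without Baf60c KD replicate 1, phosphatase genes were higher at 1 rather than 2 and skeletal muscle markers at 0 rather than 1, and without the filter skeletal muscle markers were lower at 4 rather than 2. Myl12a ranged from 0.14 to 0.23. The DESeq2 and edgeR alternatives that had been planned were not run, and voom on the recovered reads was run in their place. With 2 libraries in a group the spread is poorly estimated, and reads limit Myl1 and Myl2 in Baf60c KD.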
